A study of Mus musculus with 2 samples.

Results

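The mouse genome carries 39 protein-coding Hox genes in 4 clusters, and their RNA levels were read here in the newborn kidney. The genes were taken by symbol (Hox, a cluster letter from a to d and a paralog number) and by their annotation as protein-coding. All 39 were present in the gene tables of both libraries, among 43346 Ensembl genes and 21474 named protein-coding genes. The Hoxa cluster held 11 of them, the Hoxb cluster 10, and the Hoxc and Hoxd clusters 9 each.

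Hox genes encode homeodomain transcription factors that give positional identity along the head-to-tail axis of the embryo. Within each cluster the genes lie in the order in which they are switched on and in which their domains are placed along the axis, from low paralog numbers (anterior) to high ones (posterior), and genes of one number in different clusters are paralogs with overlapping functions. In the kidney the Hox11 paralogs are known to be required for induction of the metanephros, the definitive kidney, and the Hox10 paralogs for development of its stroma. Hox proteins bind DNA together with homeodomain cofactors of the TALE class, the Pbx, Meis and Pknox proteins.

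Total RNA-seq had been performed on kidneys of the mouse strain B6NCrl on postnatal day 0. Each of 2 libraries held both kidneys of 1 pup; the pups shared a mother, their labels give a single donor record, and sex was not collected. No treatment or mutation is listed, and RNA over 200 nt was used at 10 ng a library. The labels form 1 group with n = 2, so that no conditions could be compared; values are given per pup or as mean ± SD over the 2 pups, and the SD measures only the spread between littermates.

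Depth was 41584961 and 48823952 expected counts in pups 1 and 2, so counting error was small except for the lowest genes. The tissue label was read against marker genes: 8 of 8 kidney markers were detected, with summed TPM of 1166 and 1164. The 4 urothelial markers, the uroplakins of the ureter and renal pelvis lining, were all detected at summed TPM of 142 and 192. Detected markers numbered 1 of 5 for neurons (summed TPM 5.54 and 5.89), 2 of 4 for skeletal muscle (4.80 and 4.22), 0 of 6 for the adrenal (1.37 and 1.99), 1 of 3 for the gonad (1.10 and 1.15) and 1 of 3 for the gut (14.99 and 13.88, from Vil1). Stmn2 of neurons was detected at 5.28 and 5.16 TPM. The muscle markers detected were Tnnt3 (2.83 and 2.74 TPM) and Acta1 (1.97 and 1.42 TPM). Insl3 of the gonad read 1.08 TPM in both pups, and Star of the adrenal left 65 and 62 expected counts below the detection level. Of the gut markers, Vil1 read 14.83 and 13.61 TPM and Cdx1 0.16 and 0.27 TPM. The gut sum thus rests on 1 gene and does not by itself show gut tissue. Mnx1 of motor neurons, Myod1 of muscle, Cyp11b2 of the adrenal, Foxl2 of the ovary and Cdx2 of the gut had no count in either pup. The part of these tissues in the Hox levels was not tested. In RNA from a whole organ, a gene active in fewer cells and a gene with less RNA per cell cannot be told apart.

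Most of the Hox genes were present in the newborn kidney, at low to middle levels. TPM, the share of transcripts on a fixed total, corrects for transcript length and depth, so it can be compared between genes, and a gene was called detected at 1 TPM or more in both pups. By this rule 31 of the 39 Hox genes (79.5%) were detected, against 61.5% of all named protein-coding genes. At 10 TPM or more the count was 13 of 39 (33.3%), against 39.4% of protein-coding genes. The median Hox gene stood at 5.22 TPM, near the median of 4.73 TPM over all protein-coding genes and below the 17.8 TPM of the detected ones. All Hox genes together made up 0.0658% of TPM in pup 1 and 0.0657% in pup 2. Hox genes were thus present more often than a protein-coding gene in general, while the share at 10 TPM or more was not above the background.

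By bands of paralog number and over all transcripts, the median level was higher in the upper bands, while levels were close to 0 at number 13. The median over the 12 genes of paralog numbers 1 to 4 was 3.07 TPM, with 9 detected, and over the 11 genes of numbers 5 to 8 it was 8.52 TPM, with all 11 detected. Over the 16 genes of numbers 9 to 13 it was 13.6 TPM, with 11 detected. Counting coding transcripts alone, the medians of the 3 bands were 2.44, 8.13 and 8.47 TPM, so that the upper bands were nearly level. Within that last band the 10 genes of numbers 9 to 11 were all detected at a median of 23.8 TPM, while of the 6 genes of numbers 12 and 13 a single one, Hoxd12, was. Numbers 9 to 11 held 56.97 ± 0.651% of all Hox TPM. By single number the median did not rise steadily. It was 38.1 TPM for the 2 genes of number 7, 33.0 for number 9, 36.6 for number 10 and 17.6 for number 11.

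Summed over the clusters and all transcripts, paralog number 10 was highest. The Hox10 genes, which act in the kidney stroma, summed to 210.2 TPM in pup 1 and 206 TPM in pup 2, or 31.7 ± 0.398% of Hox TPM. The Hox9 genes followed with 124 and 128 TPM (19.2 ± 0.524%). From coding transcripts alone, a comparison added after the data were seen, the order of these 2 groups was not fixed: Hox10 summed to 109 and 103 TPM and Hox9 to 108 and 112 TPM. Below them on all transcripts came Hox7 with 79.4 and 73.1 TPM and Hox8 with 72.3 and 75.4 TPM. The pups' ranges overlapped for Hox7 and Hox8. Hox6 came next with 48.5 and 45.7 TPM. The Hox11 genes, the group needed to start kidney formation, summed to 37.9 and 42.7 TPM (6.13 ± 0.524%). Further down, Hox2 summed to 33.4 and 35.7 TPM, Hox12 to 2.13 and 2.22 TPM and Hox13 to 0.09 and 0.07 TPM.

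**Figure D1:**
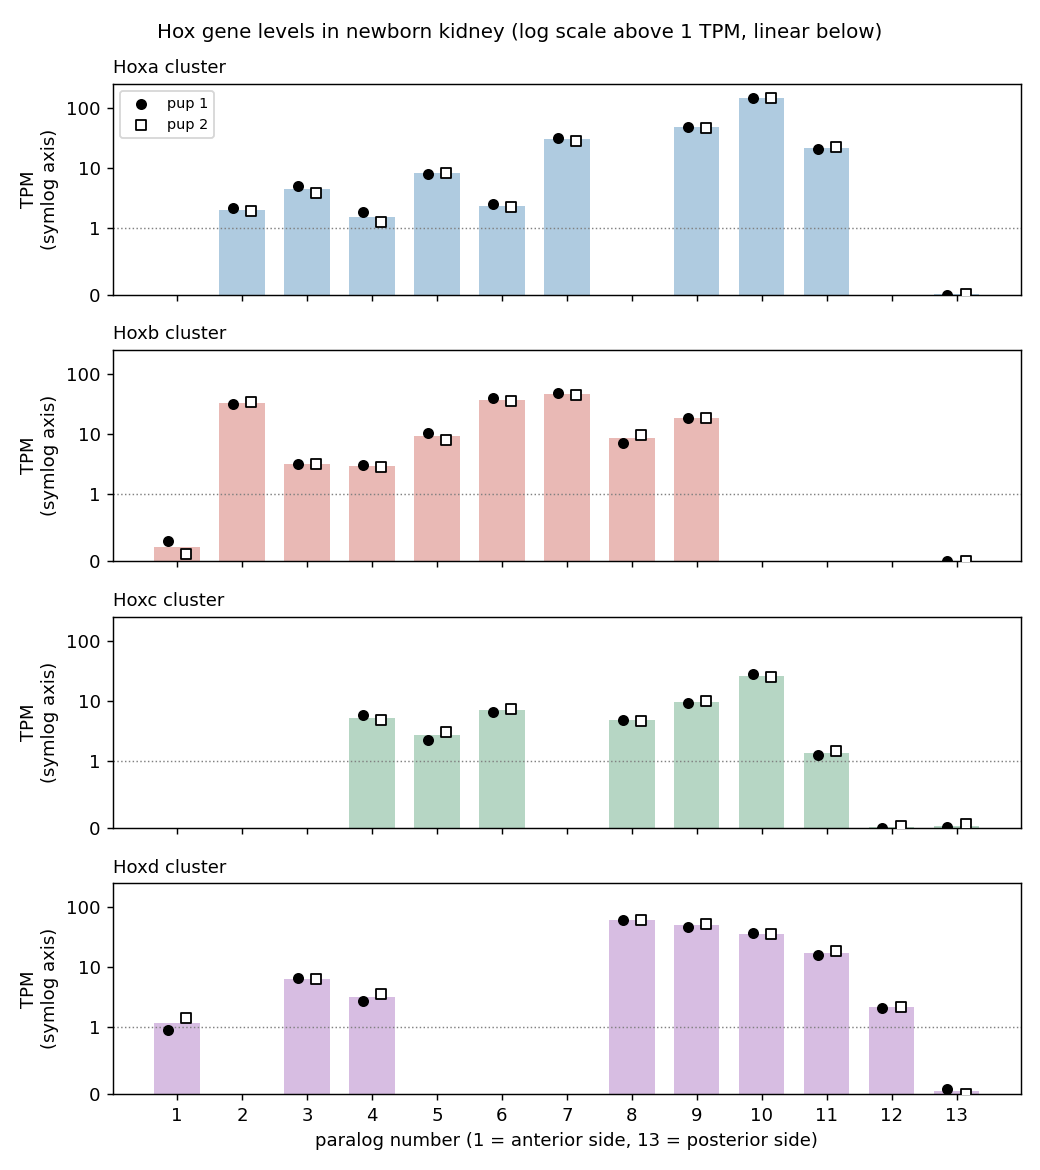
TPM of the Hox genes (y axis, logarithmic above 1 TPM and linear below) by paralog number (x axis), with 1 panel per cluster; bars are means, points the 2 pups, the dotted line is 1 TPM and empty places are paralogs absent from a cluster or not shown. Hoxa10 at 145 TPM is the highest bar, and the number 13 genes of all clusters lie below 0.1 TPM.

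The Hoxa cluster lies on chromosome 6 (chr6:52155590-52260880, GRCm38, minus strand) and gave the largest sum, 264 and 261 TPM in pups 1 and 2 (39.9 ± 0.243% of Hox TPM). Most of it came from its posterior genes. Hoxa10, a regulator of kidney stroma and of the uterus, read 144.6 and 146 TPM (145 ± 0.983, from 7026 and 8811 expected counts). That was the highest level of any Hox gene, above 95.3% of all protein-coding genes, and no other Hox gene overlapped it in either pup. Its anterior neighbour Hoxa9, known from blood progenitors and leukaemia, stood at 48.3 and 46.4 TPM, and Hoxa7 at 30.9 and 28.3 TPM. Hoxa11, a Hox11 paralog of the nephron progenitors and their mesenchyme, stood at 20.4 and 22.2 TPM. The step from Hoxa10 down to Hoxa11 was 7.09-fold in pup 1 and 6.58-fold in pup 2. It was smaller on coding transcripts alone, where Hoxa10 held 43.6 and 42.8 TPM and Hoxa11 19.97 and 20.35 TPM.

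The anterior Hoxa genes were lower and not in a strict order. Hoxa5, a regulator of lung development, had 7.98 and 8.29 TPM, and Hoxa3, a regulator of thymus and parathyroid formation, had 4.97 and 3.83 TPM. Hoxa6 (2.44 and 2.23 TPM), Hoxa2 of the hindbrain and branchial arches (2.10 and 1.89 TPM) and Hoxa4 (1.82 and 1.24 TPM) were near the detection level. The sharpest rise along the cluster lay between Hoxa6 and Hoxa7, 12.6-fold in pup 1 and 12.7-fold in pup 2. It was smaller on coding transcripts alone, where Hoxa7 held 19.4 and 17.0 TPM.

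The Hoxb cluster lies on chromosome 11 (chr11:96194316-96368256, plus strand). It summed to 163 and 157 TPM (24.3 ± 0.527% of Hox TPM) and was strongest in its middle. Hoxb7, whose promoter is widely used to drive transgenes in the ureteric bud and collecting ducts, read 48.6 and 44.8 TPM (46.7 ± 2.65). Hoxb6 beside it read 39.6 and 36.03 TPM, so that the pups' ranges for these 2 genes did not overlap. Hoxb9 stood at 18.8 and 18.6 TPM, Hoxb5 at 10.6 and 8.16 TPM and Hoxb8 at 7.26 and 9.78 TPM. Hoxb7 thus exceeded Hoxb8 by 6.69-fold in pup 1 and 4.58-fold in pup 2, although the genes are neighbours.

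Hoxb2 broke the anterior-to-posterior order. This hindbrain gene read 31.3 and 33.8 TPM (32.5 ± 1.77), the eighth level of all Hox genes and the highest of paralog numbers 1 to 4. Hoxb3 on one side had 3.14 and 3.23 TPM, so Hoxb2 was 9.96-fold and 10.5-fold higher. Hoxb1 on the other side had 0.30 and 0.11 TPM, from 16 and 8 expected counts. Hoxb4, known for its effect on blood stem cells, was close to Hoxb3 at 3.10 and 2.84 TPM. Of the 50-base windows in the Hoxb2 transcripts, 25.9% also occurred on the opposite strand in Hoxb3os, a non-coding gene at 13.7 and 15.4 TPM. Whether counting used the strand is not given in the sources used here, so reads from these 2 genes cannot be told apart over the shared stretch.

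The Hoxc cluster lies on chromosome 15 (chr15:102921103-103036852, plus strand) and was the weakest, with 57.6 and 55.6 TPM in sum (8.62 ± 0.201% of Hox TPM). Its highest gene was Hoxc10, known from lumbar motor neurons and the hindlimb, with 28.1 and 24.4 TPM (26.3 ± 2.60). Its posterior neighbour Hoxc11, the Hox11 paralog of this cluster, had 1.25 and 1.44 TPM. The step between them was 22.5-fold in pup 1 and 17.0-fold in pup 2. The other Hoxc genes detected lay between Hoxc5 at 2.22 and 3.08 TPM and Hoxc9 at 9.07 and 9.87 TPM, with Hoxc6 (6.46 and 7.44), Hoxc4 (5.73 and 4.72) and Hoxc8 (4.82 and 4.60) in between. Hoxc6, Hoxc8 and Hoxc9 are known for setting motor neuron columns in the spinal cord.

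The Hoxd cluster lies on chromosome 2 (chr2:74668310-74765142, plus strand) and summed to 174 and 183 TPM (27.1 ± 0.970% of Hox TPM). It fell from Hoxd8 toward the posterior end in both pups. Hoxd8 read 60.2 and 61.0 TPM (60.6 ± 0.552), the second level of all Hox genes, and Hoxd9 read 47.6 and 53.5 TPM. Hoxd10, a Hox10 paralog, followed with 37.5 and 35.6 TPM and Hoxd11, the third Hox11 paralog, with 16.2 and 19.0 TPM. Hoxd12, a gene of the distal limb, was at 2.13 and 2.19 TPM, so Hoxd11 was 7.63-fold higher in pup 1 and 8.69-fold higher in pup 2. That step was smaller on coding transcripts alone, where Hoxd11 held 5.83 and 9.13 TPM. On the anterior side Hoxd4 had 2.76 and 3.57 TPM and Hoxd3 6.53 and 6.34 TPM. Hoxd8 lay 21.8-fold above Hoxd4 in pup 1 and 17.1-fold in pup 2, the largest rise toward the posterior side between neighbours that were both detected. Hoxd1 had 0.96 TPM in pup 1 and 1.41 TPM in pup 2 and missed detection through pup 1.

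**Figure D2:**
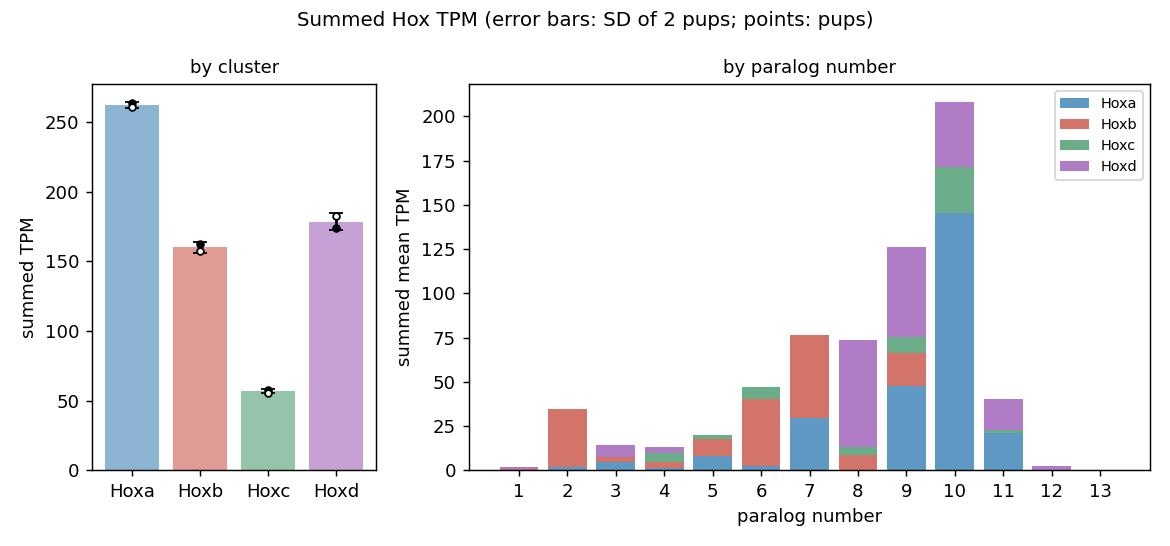
Summed TPM of the Hox genes by cluster (left; bars are means, error bars the SD of 2 pups, points the pups) and by paralog number (right; stacked mean TPM, coloured by cluster). The Hoxa bar stands at 262 TPM and the Hoxc bar at 56.6 TPM, and the tallest stack is number 10, most of it Hoxa10.

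Ranked by level, Hoxa10, Hoxd8 and Hoxd9 followed each other with no overlap between the pups' ranges. Hoxd9, Hoxa9 and Hoxb7 could not be ordered: the ranges of Hoxd9 and Hoxa9 overlapped, as did those of Hoxa9 and Hoxb7. Hoxb6 and Hoxd10 overlapped as well. From Hoxd10 down through Hoxb2, Hoxa7, Hoxc10, Hoxa11 and Hoxb9 each neighbour was separate in both pups. Among the Hox11 paralogs, Hoxa11 was above Hoxd11 and Hoxd11 above Hoxc11 in both pups, with no overlap.

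The 8 Hox genes not detected sat at or next to the ends of the clusters. They included Hoxb1 and Hoxd1 at the anterior end, and the 4 genes of number 13 and Hoxc12 at the posterior end. Hoxb1 and Hoxd1 held 16 and 50 expected counts in pup 1 and 8 and 91 in pup 2, so each left some reads. At the posterior end Hoxb13, known from prostate and tail development, had no expected count in either pup. Such a zero still leaves room for 3 counts, which is 0.0480 TPM in pup 1 and 0.0390 TPM in pup 2, so Hoxb9, the nearest Hox gene to it, was at least 391-fold and 476-fold higher in pups 1 and 2. Hoxa13, a gene of the distal limb and hindgut, had 0 counts in pup 1 and 1 in pup 2, although its deposited posterior interval reached 0.443 TPM in pup 1 and 0.375 TPM in pup 2. Hoxd13 of the digits and genitals had 6 counts and 1, Hoxc13 of hair and nails 1 and 4, and Hoxc12 0 and 1. These counts cannot separate a gene that is off from RNA in very few cells.

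The start sites were read for CpG content, since Hox genes often begin in CpG islands. Promoter windows of 300 bases (250 before to 50 after the start) came from RefSeq (GRCm38.p6) and were matched for 22 of the 39 genes, with 24 windows. They held a median of 14.5 CpG (range 4 to 45), against 14 over 19931 windows of 16317 protein-coding genes, and 12 of 24 held 15 or more, against 48.7%. The CpG-richest windows belonged to Hoxa13 (45) and Hoxd13 (37), neither detected, while Hoxa9 held 4 and Hoxd8 6. Hoxd4, at only 3.17 TPM, and 1 of the windows of Hoxd11 also held 4. Below are the 250 bases before the start of Hoxa13, Hoxd13, Hoxa9 and Hoxd8. They were chosen after their values were seen, as the 2 richest windows of undetected genes and 2 poor windows of strongly expressed genes. All lie outside annotated exons and run 5′ to 3′ on the gene's strand, with each CpG in capitals. The positions are chr6:52260881-52261130 (minus) for Hoxa13, chr2:74667975-74668224 (plus) for Hoxd13, chr6:52227371-52227620 (minus) for Hoxa9 and chr2:74704365-74704614 (plus) for Hoxd8.
Hoxa13: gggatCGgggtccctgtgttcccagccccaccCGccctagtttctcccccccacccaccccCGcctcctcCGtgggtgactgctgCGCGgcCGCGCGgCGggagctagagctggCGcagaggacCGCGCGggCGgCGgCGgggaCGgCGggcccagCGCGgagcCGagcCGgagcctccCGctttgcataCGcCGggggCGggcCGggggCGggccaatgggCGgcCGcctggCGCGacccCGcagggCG
Hoxd13: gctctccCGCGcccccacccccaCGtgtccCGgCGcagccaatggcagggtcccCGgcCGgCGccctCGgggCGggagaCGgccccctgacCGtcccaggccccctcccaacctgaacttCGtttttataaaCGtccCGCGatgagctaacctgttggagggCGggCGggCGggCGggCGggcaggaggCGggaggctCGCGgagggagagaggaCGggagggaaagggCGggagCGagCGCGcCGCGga
Hoxa9: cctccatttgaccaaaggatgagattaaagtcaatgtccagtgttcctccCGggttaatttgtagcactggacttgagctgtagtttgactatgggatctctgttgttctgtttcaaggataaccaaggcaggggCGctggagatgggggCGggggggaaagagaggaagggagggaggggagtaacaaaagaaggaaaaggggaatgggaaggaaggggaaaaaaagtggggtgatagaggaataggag
Hoxd8: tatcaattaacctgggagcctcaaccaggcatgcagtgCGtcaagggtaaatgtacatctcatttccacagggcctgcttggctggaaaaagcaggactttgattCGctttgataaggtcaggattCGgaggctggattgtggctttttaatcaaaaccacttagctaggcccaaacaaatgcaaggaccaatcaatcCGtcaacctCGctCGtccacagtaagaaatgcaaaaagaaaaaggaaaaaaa
The capitals number 35 CpG for Hoxa13, 31 for Hoxd13, 3 for Hoxa9 and 6 for Hoxd8. High CpG content was not limited to undetected genes: Hoxd9 and Hoxd10, both over 35 TPM, held 20 and 22, and the windows of Hoxa10 held 21 and 12.

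Each of the short motifs searched was found in a minority of these windows, though at a higher share than over all coding windows. With so few windows, the difference was not tested. TATAAA, the core of the TATA box, was found on either strand in 4 of 24 Hox windows, against 11.96% of all coding windows. TTTATG, bound by the Cdx factors that activate posterior Hox genes in the embryo, was found in 5 of 24, against 9.39%. TGATTNAT, bound by Pbx and Hox proteins together, was found in 2 of 24, against 2.61%. These are matches of letters and no measure of binding.

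A gene's TPM sums its transcripts, and for some Hox genes much of it was assigned to transcripts not annotated as coding. The transcript tables held 87 transcripts of the Hox genes, 63 of them annotated as protein-coding. In 27 of the 31 detected genes the transcript with the highest TPM was coding, against 93.9% of detected protein-coding genes. In 16 of the 31 all TPM lay in coding transcripts, and 10 had a single transcript. The median Hox gene held 100% of its TPM in coding transcripts, against 99.0% over all detected coding genes.

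Hoxa10 was the largest of the 4 exceptions. Hoxa10-203, annotated as a processed transcript without a reading frame, held 94.7 and 96.4 TPM, or 65.5% and 66.0% of the gene in pups 1 and 2. The deposited posterior interval of that estimate was 89.5 to 96.3 TPM in pup 1 and 91.7 to 97.9 TPM in pup 2. The coding transcripts Hoxa10-201 and Hoxa10-202 held 43.6 and 42.8 TPM together. By coding transcripts alone Hoxa10 came behind Hoxd8 (60.6 TPM), Hoxd9 (50.6 TPM) and Hoxb7 (46.4 TPM). Of the 50-base windows of Hoxa10-203, 92.4% also lie in the coding transcripts of Hoxa10, so the split rests on few distinct bases and on the counting model.

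The other 3 exceptions were Hoxd11, Hoxa7 and Hoxd3. In Hoxd11 the processed transcript Hoxd11-201 held 64.2% and 52.0% of the gene, and coding TPM was 5.83 in pup 1 and 9.13 in pup 2. Only 6.63% of the windows of Hoxd11-201 lie in the coding transcript, so here the transcripts differ along most of their length. In Hoxa7 a transcript annotated for nonsense-mediated decay, Hoxa7-205, led with 37.1% and 39.9%, and the coding transcripts summed to 19.4 and 17.0 TPM. In Hoxd3 a retained-intron transcript, Hoxd3-206, led with 62.8% and 58.6%, leaving 2.43 and 2.63 TPM in coding transcripts. Hoxa9 was led by a coding transcript and held 65.5 ± 2.15% of its TPM in coding ones.

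Counting coding transcripts alone changed which cluster was highest. The Hoxa sum was then 130.3 TPM, below Hoxd at 164 TPM and Hoxb at 156 TPM, with Hoxc still lowest at 51.3 TPM. The share held by paralog numbers 9 to 11 was 48.8% on that scale, against 56.97% with all transcripts. Hoxd8, Hoxd9, Hoxb6, Hoxd10 and Hoxc10 lay wholly in coding transcripts, so their levels did not depend on this choice.

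**Figure D3:**
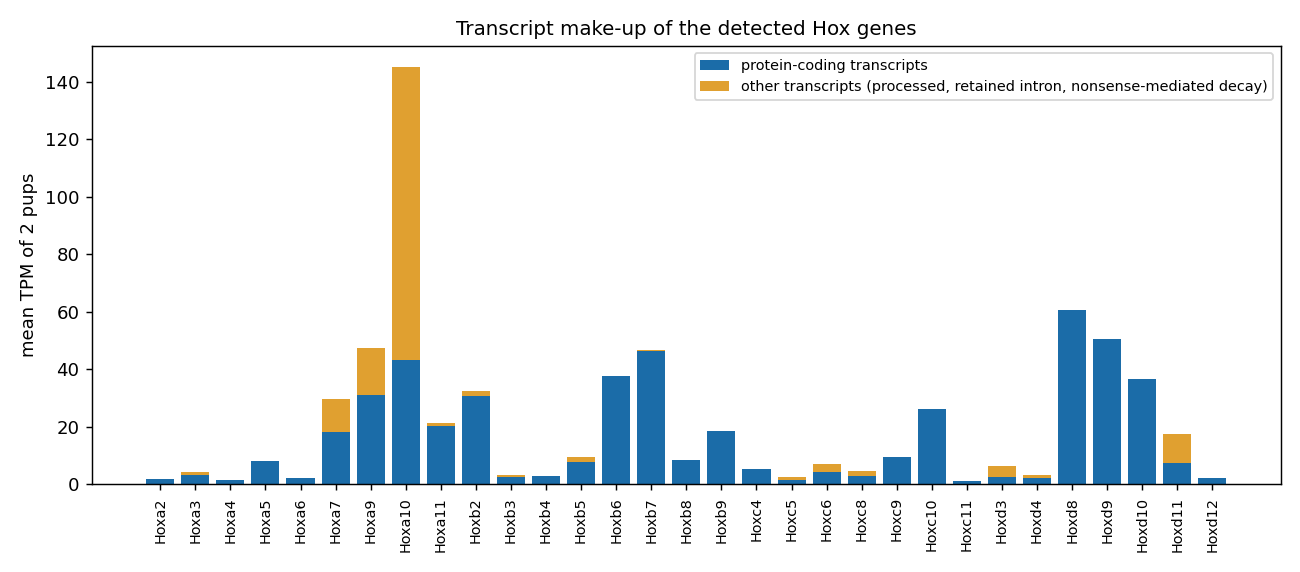
Mean TPM over the 2 pups (y axis) of the 31 detected Hox genes, in cluster order, divided into protein-coding transcripts (blue) and all other transcripts (orange). Hoxa10 has the largest orange share, 102 of 145 TPM, while Hoxd8, Hoxd9 and Hoxd10 are entirely blue.

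Some Hox genes share sequence with other genes, which makes their estimates less certain. On the same strand 24 of the 39 shared no 50-base window with another gene, among them Hoxa10, Hoxd8, Hoxd9 and Hoxb7. More than 10% was shared in 4: Hoxd3 (60.2%) and Hoxd4 (46.8%) with each other and with Gm28230, Hoxa2 (12.7%) with Gm28308, and Hoxd11 (10.04%). On the opposite strand more than 10% was shared in 7, led by Hoxb3 (51.4%, Hoxb3os), Hoxa11 (33.0%, Hoxa11os) and Hoxb2 (25.9%). The levels of Hoxd3, Hoxd4 and Hoxb3 are the least certain of the detected genes by this measure.

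Between the Hox genes the clusters also carried some non-coding RNAs at levels similar to those of Hox genes, while many others were low or not detected. The annotation places 45 other genes in the 4 intervals from the first to the last Hox gene. Of these, 20 were detected: 12 of 20 in Hoxa, 4 of 9 in Hoxb, 4 of 9 in Hoxd and 0 of 7 in Hoxc. The 42 of non-coding types had 19 detected, against 6.59% of all named genes that are not protein-coding. Of the 26 that lie on the strand opposite the Hox genes 16 were detected. Among these are 6 short RNAs of the Hoxa cluster, under 300 nt and annotated as miscellaneous RNA: Gm27868, Gm27477, Gm27492, Gm27817, Gm27454 and Gm27543. Their TPM rests on few reads: 27.9 and 36.7 expected counts for Gm27543, 4 and 5 for Gm27817, and 0.69 and 0.49 for Gm27868. On the same strand, Gm27868 lies within the span of Hotairm1, and Gm27492, Gm27817, Gm27454 and Gm27543 within that of Hoxa11os. Both longer genes were also counted as detected. Gm27868, Gm27477, Gm27492 and Gm27543 span 102, 143, 187 and 177 nt, shorter than the RNA used for the libraries. The 6 were not shown to be separate RNAs, so the counts of detected genes above may be too high. Of the 14 opposite-strand genes longer than 300 nt, 10 were detected.

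The 3 highest of these were RNAs of the opposite strand. Hoxd3os1 had 41.2 and 43.0 TPM and Hoxa11os, the antisense partner of Hoxa11, had 41.6 and 36.1 TPM. In TPM, Hoxa11os thus read higher than Hoxa11, at 20.4 and 22.2 TPM, in both pups. In expected counts Hoxa11os was lower, at 1127 and 1191 against 1321 and 1758 for Hoxa11. Across strands 33.0% of the windows of Hoxa11 are shared with Hoxa11os. The strand setting of counting is not given, so reads over that stretch cannot be told apart. Hoxb5os read 36.4 and 33.4 TPM against 10.6 and 8.16 TPM of Hoxb5, with 1.83% of the windows of Hoxb5 shared. Hotairm1, an RNA of the anterior Hoxa cluster first described in myeloid cells, read 21.5 and 30.5 TPM.

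Gm28309, on the Hox strand of the Hoxd cluster, had 22.9 and 26.9 TPM, and its range overlapped that of Hotairm1. Lower down were Gm53 between Hoxb13 and Hoxb9 (16.11 and 15.02 TPM), Hoxb3os (13.7 and 15.4 TPM) and Hoxaas3 (7.97 and 10.0 TPM). Gm15050, Hoxaas2 and 5730596B20Rik of the Hoxa cluster, Gm11539 of the Hoxb cluster, and Haglr and Gm14396 of the Hoxd cluster lay between 1.05 and 3.27 TPM. Hotair, the RNA of the posterior Hoxc cluster known for its link to Polycomb repression, was not detected, with 0.23 and 0.33 TPM from 13 and 23 expected counts.

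**Figure D4:**
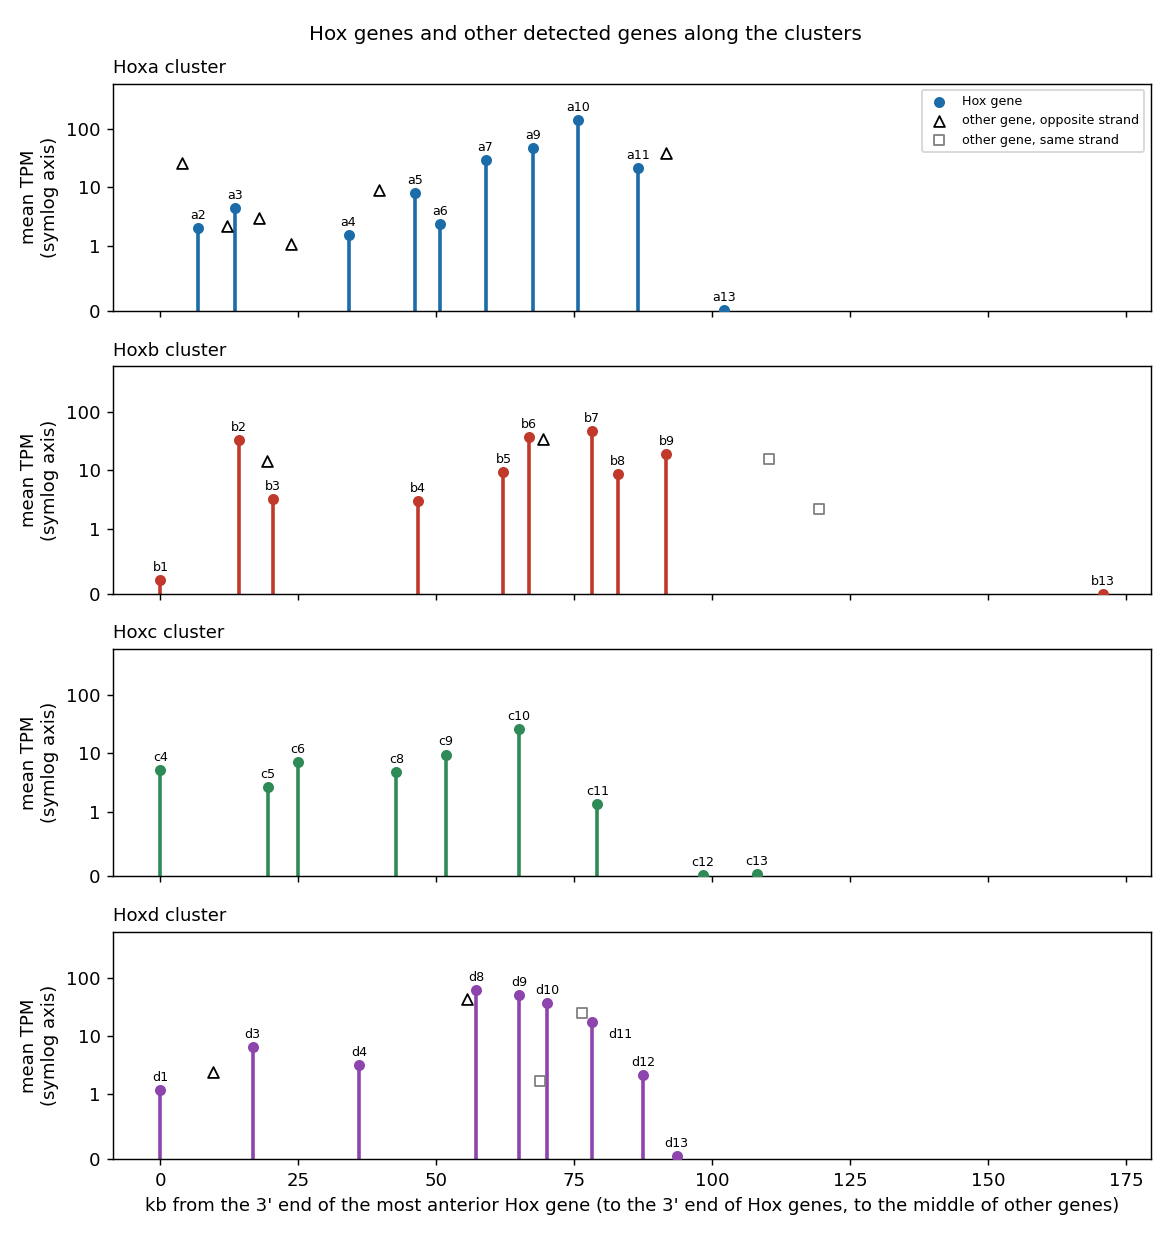
Mean TPM (y axis, logarithmic above 1 TPM and linear below) against distance in kb from the 3′ end of the most anterior gene, to the 3′ end of the Hox genes shown (filled points on stems) and to the middle of other detected genes longer than 300 nt (triangles, opposite strand; squares, Hox strand). Hoxa11os and Hotairm1 are the highest triangles in the Hoxa panel, and the Hoxc panel has no other detected gene.

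The clusters also hold microRNA genes, for which these libraries of RNA over 200 nt give no level. Mir10a, Mir10b, Mir196a-1, Mir196a-2 and Mir196b had no expected count in either pup. They are shown because the same families recur at equivalent places in the clusters, and miR-196 is known to target Hox transcripts such as Hoxb8. Their mature 5p sequences, from RefSeq (GRCm38.p6), are given 5′ to 3′ with the seed (bases 2 to 8) in capitals.
miR-10a-5p: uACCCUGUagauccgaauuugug
miR-10b-5p: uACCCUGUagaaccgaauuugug
miR-196a-5p: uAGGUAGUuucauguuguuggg
miR-196b-5p: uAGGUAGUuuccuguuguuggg
Mir10a (chr11:96317186-96317208, plus) lies near Hoxb4 and Mir10b (chr2:74726074-74726096, plus) in Hoxd4. Mir196a-1 (chr11:96265187-96265208, plus), Mir196a-2 (chr15:102973365-102973386, plus) and Mir196b (chr6:52230129-52230150, minus) lie in or near the Hox9 or Hox10 genes of their clusters. The members of each family share their seed and differ by 1 base outside it, counted from 1 at the 5′ end: U12A from miR-10a to miR-10b and A12C from miR-196a to miR-196b.

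The pups agreed within 2-fold over the Hox genes compared. Expected counts were scaled by library size (CPM) with TMM factors, 0.1 was added, and the log2 ratio of pup 2 over pup 1 was called past 2-fold; with 1 library a pup there is no test. Of 32 Hox genes that reached 50 expected counts in 1 pup or both, 0 passed 2-fold, against 0.607% of 15161 genes tested. The count was also 0 with DESeq2 size factors. At 1.5-fold 1 passed, Hoxd1, against 2.6% of all genes. Hoxd1 had 50 counts in pup 1 and 91 in pup 2, a log2 ratio of 0.62 with a 95% counting interval from 0.14 to 1.19. The median size of the log2 ratio was 0.15 over the Hox genes and 0.10 over all genes. The genes were not matched for counts, so whether Hox genes differed more was not tested. Taken with its sign, the median log2 ratio was 0.095 over the Hox genes, toward pup 2, and 0.0062 over all genes.

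For genes with many reads even small differences exceeded counting error. Hoxd9 had 2877 and 3977 expected counts, a log2 ratio of 0.26 with an interval from 0.19 to 0.33, and Hoxd8 a ratio of 0.13 (0.07 to 0.19). Hoxa10 was at 0.12 (0.08 to 0.17). Hoxb5 differed the other way, at -0.27 (-0.44 to -0.11). With 1 library a pup, differences between animals and between library preparations cannot be told apart. Hoxb8 showed how TPM and counts can part: its TPM was 7.26 and 9.78, while its scaled counts differed by a log2 ratio of 0.25. The share of its TPM in the shorter transcript Hoxb8-203 was 4.38% in pup 1 and 23.9% in pup 2.

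**Figure D5:**
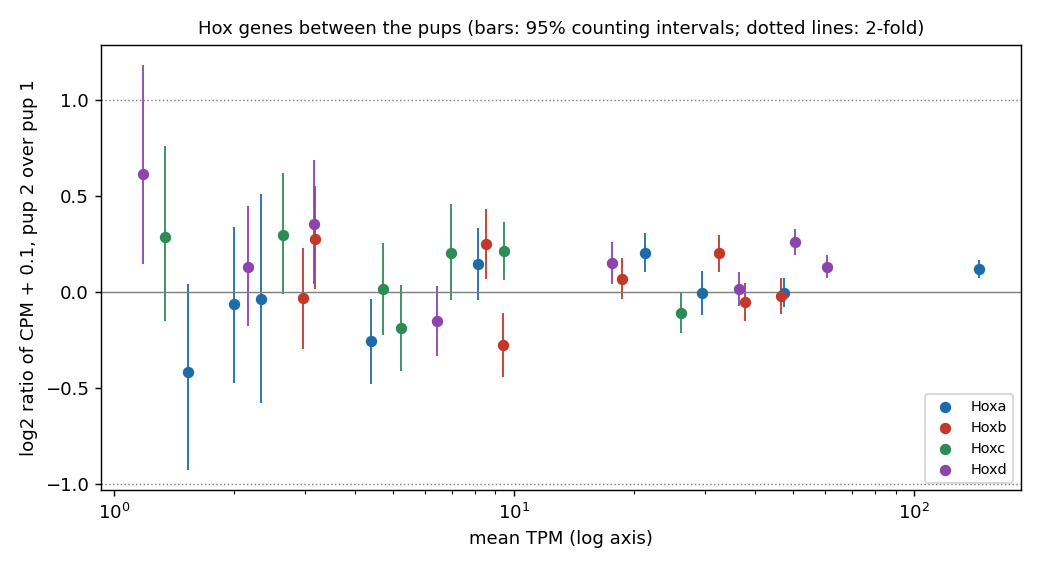
Log2 ratio of CPM + 0.1, pup 2 over pup 1 (y axis), against mean TPM (x axis, logarithmic) for the 32 Hox genes that reached 50 expected counts in 1 pup or both, coloured by cluster; lines are 95% counting intervals and dotted lines mark 2-fold. Every gene lies between the dotted lines, and Hoxd1, the leftmost point, is highest at 0.62.

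The Pbx, Meis and Pknox cofactors of the Hox proteins were all present. All 9 genes of this list were detected, against 61.5% of all protein-coding genes. Their median of 16.7 TPM was close to the 17.8 TPM of detected coding genes. Meis1 had 55.6 and 47.6 TPM and Meis2 had 49.5 and 42.1 TPM. Both stood at the level of Hoxd9, Hoxa9 and Hoxb7. Pbx3, Pknox1, Meis3 and Pbx2 lay between 10.2 and 17.6 TPM, and Pbx4 (6.86 and 6.15 TPM) and Pknox2 (6.59 and 4.76 TPM) were lowest.

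The listed partners and targets of Hox11 proteins in the nephron progenitors were mostly detected. They numbered 5 of 6 at a list median of 15.1 TPM, also against 61.5% of protein-coding genes. Pax2, a factor of the nephric lineage, read 22.7 and 23.7 TPM and Eya1, its coactivator partner, 19.3 and 17.0 TPM. Six2, which keeps nephron progenitors undifferentiated, read 9.21 TPM in pup 1 and 15.1 TPM in pup 2, a wider gap than any of the Hox11 genes showed. Gdnf, the signal that draws out the ureteric bud, was at 4.42 and 4.73 TPM and Itga8, an integrin of the mesenchyme, at 33.2 and 29.9 TPM. The Hox11 paralogs stood beside these genes at 20.4 and 22.2 TPM (Hoxa11), 16.2 and 19.0 TPM (Hoxd11) and 1.25 and 1.44 TPM (Hoxc11). Of the Hoxd11 level, 5.83 and 9.13 TPM lay in its coding transcript.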

How the data were processed

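Total RNA-seq libraries of newborn mouse kidneys (n = 2 pups, 1 group) were used. Per the file headers, the authors deposited for each library a gene table and a transcript table with expected counts (estimated reads, not normalised), TPM and, by transcript, its percent of the gene's TPM, with posterior mean values and interval bounds whose level is not given in the sources used here. The deposited notes name mm10 and GENCODE M4; the aligner was not given in the sources used here, nor was the strand setting of counting. A model splits reads that fit more than 1 transcript.

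Genes were matched by Ensembl identifier without version to GENCODE M21 (GRCm38), which also gave coordinates and transcript types. The Hox genes, the lists of other genes and the rules were chosen with earlier results of these data known. Named were the Hox genes, every other detected gene inside the clusters, a fixed set of cluster RNAs, the nearest coding genes outside the clusters and the list members; a few of these genes are not reported here. Detection was 1 TPM in both pups; no test was possible with 1 group. For the comparison of the pups, the rounded expected counts were scaled with TMM factors in edgeR 4.0.16 (R 4.3.3), with 0.1 CPM added, for genes with at least 50 counts in either pup. Counting intervals (95%, exact binomial) used the same rounded counts, and intervals and floors cover counting error only. Shared sequence was counted in windows of 50 bases of the M21 transcripts. The pup comparison was tested on simulated counts, and the summaries of levels, shares and motifs on small made-up inputs with known answers. Alternatives were DESeq2 1.42.0 size factors, other filters, folds and detection levels, posterior mean TPM, coding transcripts only, rescaled TPM and single pups. Python 3.11.15 with pandas 2.3.3, NumPy 2.4.6 and Matplotlib 3.10.9 was used.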

Additional observations from a re-analysis of the deposited data

How the results depend on the processing

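Of 81 alternative values of the main results, 54 stayed within the spread between the pups or, for counts, within 1.5 times, and 27 moved. For the cluster sums and the share of numbers 9 to 11, leaving out 1 pup could not move the value. With 2 pups, each always lies within the SD of their mean. Those alternatives are among the 54 and say nothing about stability. Detection at 5 TPM left 19 Hox genes, and detection at 2 and 5 TPM left 13 and 10 of the other cluster genes. Rescaling TPM over protein-coding genes gave a Hox median of 6.09, cluster sums of 306 (Hoxa), 187 (Hoxb), 66.1 (Hoxc) and 208 (Hoxd), and medians of 3.58, 9.95 and 15.8 for paralog numbers 1 to 4, 5 to 8 and 9 to 13. Coding transcripts alone gave a Hox median of 3.32, cluster sums of 130.3, 156, 51.3 and 164, medians of 2.44, 8.13 and 8.47 by paralog band, and 48.8% of TPM in numbers 9 to 11. With sums of 109.7 for Hox9 and 106 for Hox10, added after the data were seen, Hox10 no longer led. The median of detected members was 8.52 TPM, and posterior mean TPM gave 259 for Hoxa. Leaving out either pup gave medians from 2.93 to 3.04 for numbers 1 to 4 and from 7.98 to 8.29 for numbers 5 to 8. Without a filter 1 Hox gene passed 2-fold between the pups, Hoxd13 (6 and 1 counts), and at 1.5-fold 1 did, Hoxd1. Over all genes tested 92 passed 2-fold, against 38 with 1 CPM added, 57 with 0.5 CPM added, 401 from 10 counts and 638 without a filter. No paired analysis was possible because there is a single group. With 2 littermates and no second group, no level here can be tied to a condition, and genes of under 50 counts are limited by depth.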

Other observations

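Genes that regulate the Hox clusters were described from a list of 14. Of these, 11 were detected (61.5% of all protein-coding genes were), at a list median of 19.9 TPM. The Polycomb genes, which keep Hox genes silent, were all present: Rnf2 at 59.4 and 59.3 TPM, Ezh2 at 44.3 and 38.9, Eed at 29.6 and 30.2, Bmi1 at 24.1 and 23.4 and Suz12 at 12.5 and 11.5. On the activating side Men1, a partner of the Kmt2 histone methyltransferases, had 42.1 and 43.7 TPM, while Kmt2a (5.50 and 3.80) and Kmt2b (4.81 and 3.86) were lower. The retinoic acid receptors, through which retinoic acid switches on anterior Hox genes, lay close together: Rarb at 24.4 and 21.7 TPM, Rara at 21.7 and 20.5 and Rarg at 19.3 and 18.2. The Cdx genes of the early posterior embryo were the 3 not detected, with no count of Cdx2 and Cdx4 and 0.16 and 0.27 TPM of Cdx1.

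The coding genes next to the Hoxa, Hoxb and Hoxd clusters differed by side, but also by distance. On the anterior side all 4 were detected: Skap2 (31.3 ± 1.68 TPM), Skap1 (6.61 ± 0.799), Smug1 (10.0 ± 0.856) and Mtx2 (126 ± 6.17). On the posterior side Evx1, Ttll6 and Evx2 stayed at or below 0.06 TPM in both pups, beside the undetected genes of number 13 in the Hoxa, Hoxb and Hoxd clusters. Evx1, Ttll6 and Evx2 lay 52.6, 28.9 and 8.75 kb from their clusters. The closest detected gene, Mtx2, lay 60.7 kb away, so side and distance cannot be told apart. Calcoco1, the nearest coding gene beyond Hoxc13 at a distance of 199 kb, stood at 45.8 ± 0.318 TPM.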
